A study of Macaca mulatta with 2 samples.

Results

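The genes SOCS1, SOCS2, SOCS3, CISH and PLK2 were followed in circulating CD4+CD8+ double-positive (DP) T cells of a rhesus monkey. They are 5 of the 35432 genes counted, and each has 1 row in the gene list. The 5 genes were chosen by name with earlier results of these same cells known, among them their levels by cell group and by CD8 tag, so all values below are a description and none is a test. The material was 1 untreated animal aged 6 years, from whose fresh blood CD4+ cells were taken with releasable magnetic beads and then the CD8+ cells among them with a second kind of bead. A single 5′ RNA library was made, and the antibody tags bound to CD4 and CD8 on the same cells were counted in a second library, so there was no second animal, control or treatment, and no value has a biological replicate. Errors are 95% exact intervals of counting (Poisson for levels, binomial for shares and ratios) and cover counting error only. Those of levels and ratios treat UMIs as independent, although 1 cell can hold several, so they can be too narrow.

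The SOCS proteins and CIS, the product of CISH, are feedback brakes on cytokine receptors. A cytokine activates receptor-bound JAK kinases, these phosphorylate STAT factors, and the STATs switch on SOCS genes, whose products bind the receptor or kinase through an SH2 domain and recruit a CUL5 ubiquitin ligase through the SOCS box. SOCS3 is best known for restraining signals through the IL6ST (gp130) chain, SOCS1 for interferon signals, and CISH and SOCS2 for signals that run through STAT5. PLK2 is a polo-like kinase outside that loop, known for its rapid induction by serum and also as a p53 target.

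The members lie on 5 chromosomes of the Mmul_10 genome, the build of the deposited counts. In its RefSeq annotation SOCS1 is at chr20:11218216-11222015 (minus strand), SOCS2 at chr11:93367615-93374511 (plus strand), SOCS3 at chr16:74717689-74719374 (minus strand), CISH at chr2:106735078-106740055 (minus strand) and PLK2 at chr6:56790524-56796802 (minus strand). None of them overlaps another protein-coding gene there. Because STAT factors act on SOCS promoters, the 250 bases before the 5′-most annotated start of CISH, PLK2, SOCS1 and SOCS2 were read and searched for the STAT motif TTCNNNGAA, which reads the same on both strands. Among these 4 windows, the motif was present 2 times before CISH and 1 time before PLK2, and these letters were not in the windows of SOCS1 and SOCS2. Of 20782 protein-coding promoters of the same length, 5.98% held it. Each match is a description of the letters and not a shown binding site. The stretches below are shown because CISH, PLK2 and SOCS2 carry patterns that follow, and capitals mark the motif. They run 5′ to 3′ on the strand of the gene. The windows are chr2:106740056-106740305 for CISH, chr6:56796803-56797052 for PLK2 and chr11:93367365-93367614 for SOCS2.
CISH: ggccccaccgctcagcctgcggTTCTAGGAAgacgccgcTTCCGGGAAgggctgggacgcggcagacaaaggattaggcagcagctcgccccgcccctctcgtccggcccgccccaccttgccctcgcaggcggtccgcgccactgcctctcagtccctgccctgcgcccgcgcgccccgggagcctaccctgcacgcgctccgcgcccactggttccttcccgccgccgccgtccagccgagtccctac
PLK2: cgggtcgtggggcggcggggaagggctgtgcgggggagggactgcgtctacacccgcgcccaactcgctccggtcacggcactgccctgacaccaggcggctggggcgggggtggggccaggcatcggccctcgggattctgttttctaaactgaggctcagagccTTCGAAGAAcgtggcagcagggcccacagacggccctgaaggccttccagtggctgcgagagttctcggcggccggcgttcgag
SOCS2: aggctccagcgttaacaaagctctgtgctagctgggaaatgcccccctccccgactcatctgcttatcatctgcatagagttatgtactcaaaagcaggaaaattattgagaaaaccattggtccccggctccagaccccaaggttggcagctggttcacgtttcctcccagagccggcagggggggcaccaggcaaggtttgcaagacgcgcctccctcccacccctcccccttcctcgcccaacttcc
The CISH matches begin 228 and 211 bases before the start and the PLK2 match 84 bases before it.

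Of 7923 barcodes, 7601 passed the study's stated limits, and 7311 of these held at least 1 UMI (a molecule counted once) of CD3E, the T cell receptor chain used here as the mark of a T cell. Those had a median of 3656 UMIs, so single cells showed the members only in part. SOCS1 had 1263 UMIs and was seen in 15.1% of the CD3E+ cells, SOCS3 had 989 UMIs in 10.4%, PLK2 709 UMIs in 6.74%, SOCS2 637 UMIs in 6.74% and CISH 320 UMIs in 4.05%. Most positive cells held 1 UMI, and the most in a single cell was 7, for SOCS2 and for PLK2. As a reference for free RNA, the 86 kept barcodes that lacked CD3D, CD3E and CD3G and carried 3 or more B cell gene UMIs (median 4137.5 UMIs in all) held a SOCS1 UMI in 4.65%, a SOCS3 UMI in 5.81% and a PLK2 UMI in 1.16%. SOCS2 and CISH were at 0 of 86 cells there, which allows a share of up to 3.49% by a floor of 3 counts and up to 4.2% by the exact interval. B cells can use SOCS genes themselves, so these shares are not a pure background.

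CD3E+ cells were sorted into 6 exclusive groups by raw UMIs. The naive genes CCR7 and LEF1 together defined CCR7+LEF1+ cells, split by SOX4, a gene of recent thymic emigrants, into 65 SOX4+ and 813 SOX4- cells. CCR9, a gut-homing chemokine receptor, defined 439 CCR9+ cells, FOXP3, the factor of regulatory T cells, 145 FOXP3+ cells, and at least 3 UMIs of the protease GZMB 2727 GZMB+ cells, while 3072 other cells met none of these rules. A further 50 mixed cells met several rules, had a median of 7524.5 UMIs and were left out of the comparisons between groups. They remain in the values given over all CD3E+ cells, namely the bins by marker UMIs, the CD8 tag quartiles and co-detection. The groups carried the genes of their names. Against GZMB+ cells, the naive markers CCR7, LEF1, TCF7, CD7 and PECAM1 were each higher by at least 2-fold in CCR7+LEF1+ cells. All 4 cytotoxic markers (GZMB, CX3CR1, PRF1 and NKG7) were lower there. Against the other groups together, all 4 regulatory markers were higher in FOXP3+ cells and all 3 CCR9+ helper markers in CCR9+ cells. The 2 CCR9+ helper markers with enough UMIs were also higher in CCR7+LEF1+ than in GZMB+ cells. CCR7, LEF1, GZMB, FOXP3 and CCR9 had themselves defined the groups. Levels are given as UMIs per 1e+06 UMIs of the group (CPM) and are compared only within a gene. A gene is called higher or lower in a comparison where the ratio of CPM + 10 passes 2-fold, among genes with at least 50 UMIs over both sides.

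**Figure D1:**
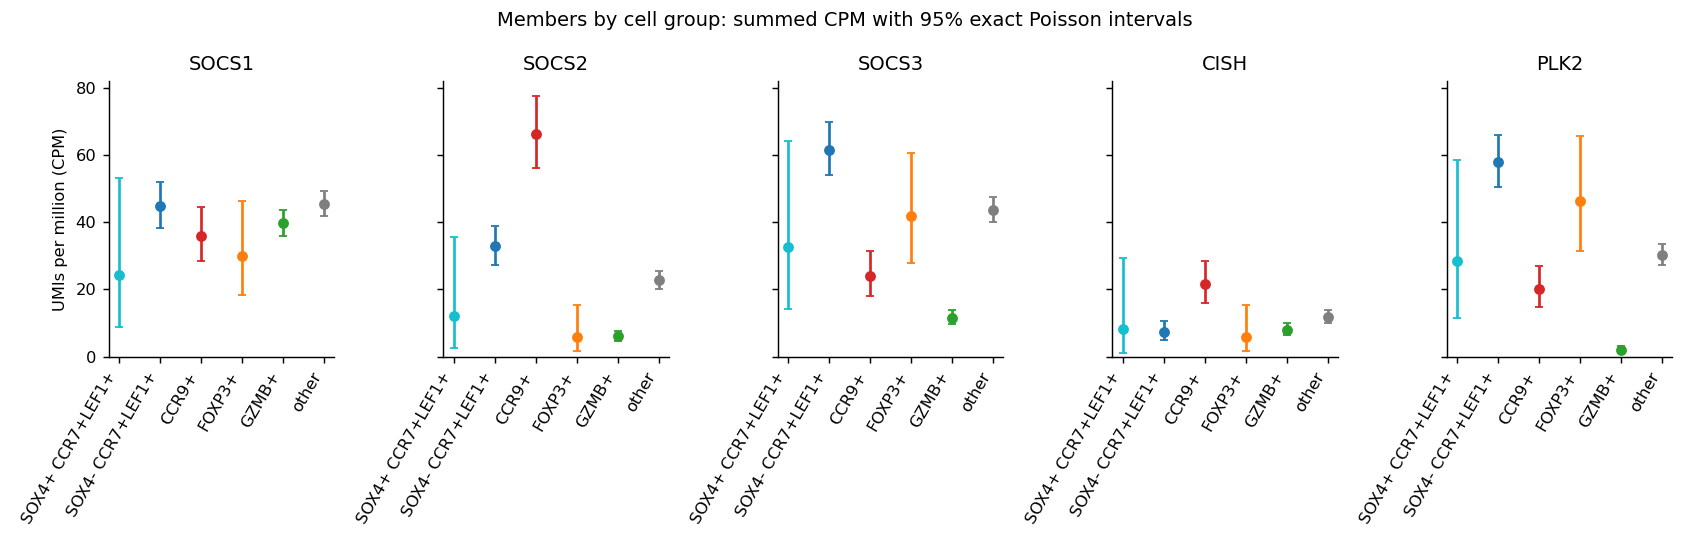
Levels of the 5 members in the 6 cell groups. Each panel is a gene, each point the level of a group in CPM (linear axis) and each line its 95% exact Poisson interval. PLK2 and SOCS3 were highest in SOX4- CCR7+LEF1+ cells (57.9 and 61.4 CPM) and lowest in GZMB+ cells, SOCS2 and CISH were highest in CCR9+ cells (66.2 and 21.5 CPM), and SOCS1 lay between 24.4 and 45.4 CPM.

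PLK2 separated naive from cytotoxic cells more than any other member. Its level was 57.9 CPM (50.6 to 65.9) in SOX4- CCR7+LEF1+ cells, 46.3 (31.5 to 65.8) in FOXP3+ cells, 30.2 (27.2 to 33.4) in other cells, 28.4 (11.4 to 58.6) in SOX4+ CCR7+LEF1+ cells, 20.2 (14.8 to 26.9) in CCR9+ cells and 2.03 (1.26 to 3.1) in GZMB+ cells. Each neighbouring pair in that order overlapped except the last, and GZMB+ cells stood below every other group. Over all CCR7+LEF1+ cells the level was 27.6-fold that of GZMB+ cells, a log2 ratio of 4.79 (4.14 to 5.51), from 233 against 21 UMIs. That placed PLK2 at rank 7 of 8903 genes by the ratio of CPM + 10. The GZMB+ level lay near that of the B gene cells, at 2.52 CPM (0.0638 to 14.0) from 1 UMI, so the size of the fold rests on a level near that reference. A PLK2 UMI was found in 20% (17.3 to 23.0) of SOX4- CCR7+LEF1+ cells (median 4331 UMIs) and in 0.623% (0.364 to 0.996) of GZMB+ cells (median 3290 UMIs), or in 10.1% and 0.230% after every cell was thinned to 2000 UMIs. Without the 5% of cells with the most UMIs, 8 PLK2 UMIs remained in 2602 GZMB+ cells and the log2 ratio was 6.06 (5.06 to 7.29). The part of doublets was not tested.

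SOCS3, the brake on IL6ST signals, followed much the same order at a smaller contrast. It reached 61.4 CPM (53.9 to 69.7) in SOX4- CCR7+LEF1+ cells, 43.5 (39.9 to 47.4) in other cells, 41.8 (27.8 to 60.5) in FOXP3+ cells, 32.5 (14.0 to 64.0) in SOX4+ CCR7+LEF1+ cells, 24.1 (18.2 to 31.4) in CCR9+ cells and 11.6 (9.62 to 13.9) in GZMB+ cells. Other, FOXP3+ and SOX4+ cells did not differ beyond their intervals, and GZMB+ cells again lay below the rest, in the case of SOX4+ cells only just. The log2 ratio of CCR7+LEF1+ over GZMB+ cells was 2.36 (2.04 to 2.69), or 5.15-fold. The GZMB+ level lay near that of the B gene cells, at 12.6 CPM (4.09 to 29.4).

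SOCS2 showed a similar ratio, 2.40 (1.95 to 2.86), but its order of groups was another. It was at 66.2 CPM (56.1 to 77.7) in CCR9+ cells, 32.8 (27.3 to 39.0) in SOX4- CCR7+LEF1+ cells, 22.7 (20.1 to 25.5) in other cells, 12.2 (2.51 to 35.6) in SOX4+ CCR7+LEF1+ cells, 5.99 (4.6 to 7.68) in GZMB+ cells and 5.98 (1.63 to 15.3) in FOXP3+ cells. The top 3 groups were separated from each other. FOXP3+ and GZMB+ cells could not be told apart, and SOX4+ cells, with 3 UMIs, could not be placed against either neighbour. A SOCS2 UMI was in 1.87% of GZMB+ and 2.76% of FOXP3+ cells, both under the 4.2% that the 86 B gene cells allow.

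The levels of SOCS1 and CISH did not differ between naive and cytotoxic cells beyond their intervals. SOCS1 was at 43.6 CPM (37.5 to 50.4) in CCR7+LEF1+ cells and 39.7 (36.0 to 43.8) in GZMB+ cells, a log2 ratio of 0.13 (-0.13 to 0.39). Its 6 group levels were 45.4 in other, 44.8 in SOX4- CCR7+LEF1+, 39.7 in GZMB+, 36.0 in CCR9+, 29.9 in FOXP3+ and 24.4 in SOX4+ CCR7+LEF1+ cells, and each neighbouring pair in that order had overlapping intervals. CISH was at 7.47 CPM (5.07 to 10.6) in CCR7+LEF1+ and 8.02 (6.39 to 9.95) in GZMB+ cells, with a log2 ratio of -0.10 (-0.75 to 0.51). A CISH UMI was in 3.19% and 2.93% of these cells. Both shares lie under the 4.2% that the 86 B gene cells allow, so a CISH difference near that floor cannot be read. The remaining CISH levels were 21.5 in CCR9+, 11.9 in other, 8.13 (2 UMIs) in SOX4+ CCR7+LEF1+ and 5.98 (4 UMIs) in FOXP3+ cells, and only CCR9+ cells stood clear of the next group.

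By the 2-fold rule, 3 of the 5 members (SOCS2, SOCS3 and PLK2) were higher in CCR7+LEF1+ than in GZMB+ cells and 0 were lower. Of 8903 genes, 1.58% were higher and 4.53% lower, with a median log2 ratio of -0.18. Since the members were picked with this contrast in view, the count carries no weight against that background. Among 17 measured receptors that signal through JAKs, 3 were higher in CCR7+LEF1+ cells. They were IL6R at 78.0 against 8.31 CPM, its signalling partner IL6ST at 101 against 17.7, and the interferon gamma receptor chain IFNGR2 at 48.4 against 4.64. IL6R and IL6ST together form the IL-6 receptor, whose signal SOCS3 is known to restrain. IL2RB, a chain of the IL-2 and IL-15 receptors, and IL10RA were lower, at 30.1 against 145 and at 106 against 431 CPM. None of the 4 JAK kinases and none of the 7 STAT factors passed 2-fold, nor did any of the 4 measured partners of the SOCS box ligase. STAT3 was at 81.4 and 87.9 CPM in these groups and STAT5B at 46.5 and 40.9. Of 9 STAT target genes 0 were higher and IRF1 was lower (195 against 455 CPM), and of 13 other inhibitors of the pathway only the ubiquitin ligase CBLB passed, lower at 71.5 against 161 CPM.

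Genes related to PLK2 showed smaller ratios than PLK2. PLK3, another polo-like kinase, was at 93.4 CPM in CCR7+LEF1+ and 44.5 in GZMB+ cells, a log2 ratio of 1.07 (0.87 to 1.27) that stayed short of 2-fold on the scale of CPM + 10. Among 10 p53 target genes SESN1 was higher (46.2 against 13.4 CPM) and GADD45A lower (12.8 against 57.0). Of 17 immediate-early genes, the rapid targets of receptor and stress signals, JUN (926 against 401 CPM), JUNB (902 against 355) and DUSP2 (433 against 190) were higher and FOSL2 (11.3 against 48.6) was lower. The summed level of the immediate-early list was 8847 CPM in CCR7+LEF1+ and 6249 CPM in GZMB+ cells. Its part in the SOCS3 and PLK2 contrasts was not tested.

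Markers of other cells differed in level between the 6 groups, with the widest ranges in CPM for hemoglobin and B cell genes. The 7 B cell genes together ranged from 36.6 CPM in SOX4+ CCR7+LEF1+ to 160 CPM in CCR9+ cells, 6 monocyte genes from 0 to 9.38 CPM, 4 platelet genes from 0 to 2.99 CPM and 2 hemoglobin genes from 0 CPM in SOX4+ CCR7+LEF1+ to 109 CPM in GZMB+ and 494 CPM in other cells. Without the 586 cells that held a B cell gene UMI, the log2 ratio of CCR7+LEF1+ over GZMB+ cells was 5.22 (4.46 to 6.08) for PLK2, 2.51 (2.17 to 2.86) for SOCS3 and 2.56 (2.07 to 3.07) for SOCS2. The part of red cell RNA was not tested.

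**Figure D2:**
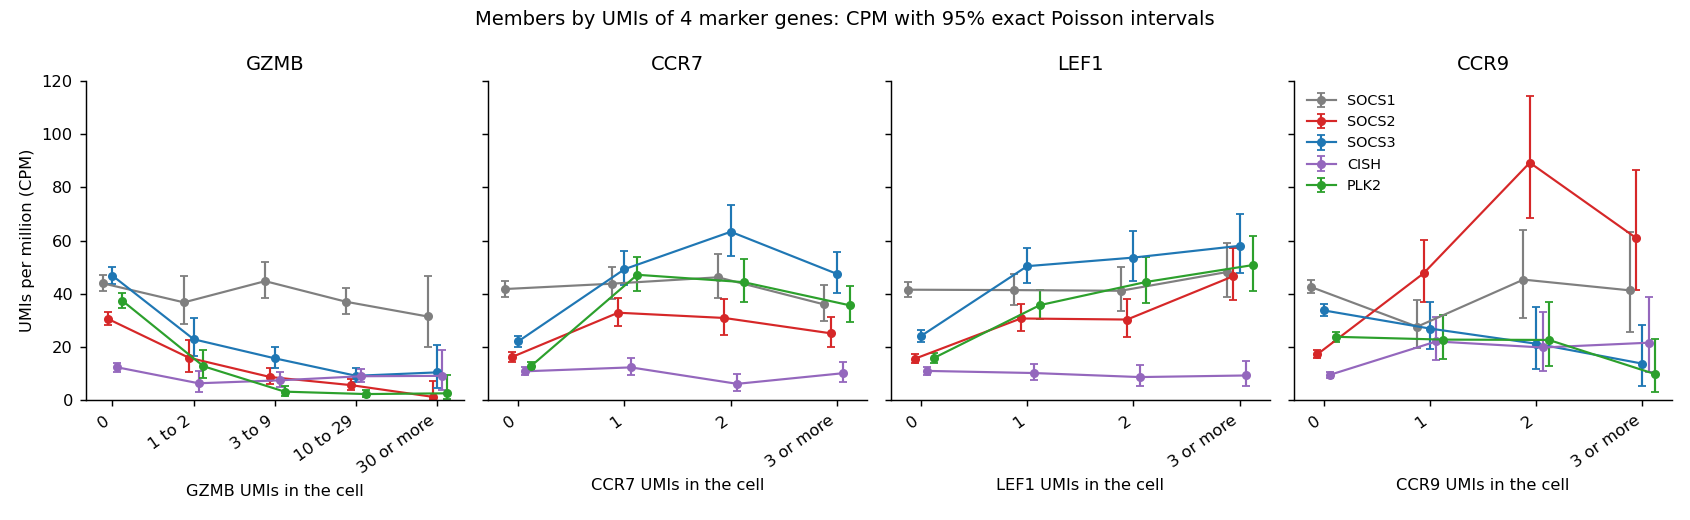
Levels of the members by the number of UMIs of GZMB, CCR7, LEF1 and CCR9 in a cell. Points are levels in CPM (linear axis) over all CD3E+ cells in a bin and lines are 95% exact Poisson intervals. PLK2 falls from 37.5 CPM without GZMB to 3.25 at 3 to 9 UMIs, SOCS2 climbs from 17.3 CPM without CCR9 to 89.3 at 2 UMIs, and SOCS1 stays between 31.5 and 44.8 CPM over the GZMB bins.

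PLK2, SOCS3 and SOCS2 were lower by steps in cells with more GZMB UMIs. The bins compare cells of 1 sample and are not a course over time. The bin of 1 to 2 UMIs may mix cells that express GZMB with cells that hold only free GZMB RNA, which was not tested. PLK2 was at 37.5 CPM in the 4038 cells without a GZMB UMI, 12.8 at 1 to 2 UMIs, 3.25 at 3 to 9, 2.34 at 10 to 29 and 2.63 at 30 or more, so nearly all of the difference lay among the bins below 10 GZMB UMIs. SOCS3 went through 46.8, 22.9, 15.8, 9.21 and 10.5 CPM over the same bins, and SOCS2 through 30.7, 16.0, 8.76, 5.69 and 1.31, the last from 1 UMI. SOCS1 was at 44.0 CPM in the first bin and 31.5 (20.2 to 46.9) in the last. CISH was at 12.4 CPM without GZMB and between 6.40 and 9.19 in the bins with it.

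The higher levels with the naive genes did not need both of them. Among cells without CCR9 and FOXP3 and with fewer than 3 GZMB UMIs, SOCS3 was at 27.6 CPM (23.7 to 32.0) where CCR7 and LEF1 were both absent, and at 61.1 with LEF1 alone, 60.5 with CCR7 alone and 59.7 with both. PLK2 was at 18.1 CPM (15.0 to 21.8) in the double-negative cells, 41.0 (33.2 to 50.2) with LEF1 alone, 44.6 (38.0 to 52.1) with CCR7 alone and 56.1 (49.1 to 63.8) with both. SOCS3 thus did not differ beyond its intervals among the 3 positive classes, while for PLK2 the interval of the double-positive cells overlapped those of the single-positive cells only at its edge. SOCS2 was at 18.1 CPM in double-negative cells and 22.9 (18.2 to 28.4) with CCR7 alone. It was at 34.9 (27.7 to 43.5) with LEF1 alone and 31.6 (26.4 to 37.4) with both. It thus leaned to LEF1, but the interval of CCR7 alone overlapped the latter 2 at its edge. Over all CD3E+ cells SOCS2 rose from 15.6 CPM at 0 LEF1 UMIs to 46.7 at 3 or more. By CCR7 UMIs it was at 16.2 CPM at 0, 32.9 at 1, 30.9 at 2 and 25.2 at 3 or more. The classes by CCR7 and LEF1 differed in depth, with medians of 3518 UMIs for the double-negative cells and 4117 to 4272.5 for the others.

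SOX4+ CCR7+LEF1+ cells were too few to place the members. Their 65 cells held 3 to 8 UMIs of SOCS1, SOCS2, SOCS3 and PLK2 each and 2 of CISH. The log2 ratio of SOX4- over SOX4+ cells was 1.43 (-0.15 to 3.72) for SOCS2, 1.02 (-0.04 to 2.36) for PLK2, 0.92 (-0.08 to 2.15) for SOCS3, 0.88 (-0.27 to 2.34) for SOCS1 and -0.13 (-2.11 to 2.98) for CISH, so every interval held 0. Of the 4 members with enough UMIs to be compared, 0 passed 2-fold, against 4.31% of 5914 genes higher and 0.727% lower in SOX4- cells. Most SOX4+ cells, 52 of 65, lay in the lowest quartile of the CD8 tag, where PLK2 had 1 UMI in the SOX4+ cells (5.35 CPM, 0.136 to 29.8) and 56 in 249 SOX4- cells (57.5 CPM, 43.4 to 74.7). The log2 ratio there was 3.43 (0.89 to 8.75). The 13 SOX4+ cells above that quartile held 6 PLK2 UMIs, a level of 101 CPM (37.1 to 220.1). The split by tag was made after the values had been seen, and the 2 parts of the SOX4+ cells differ beyond their intervals. Of the pathway genes, STAT5B was called higher in SOX4- cells (48.6 against 12.2 CPM, the latter from 3 UMIs), as were the immediate-early gene EGR1 (314 against 0 UMIs), NR4A1 (50 against 0), the factor BATF (65 against 0) and PIAS4 (52 against 0). These raw counts come from 3905894 UMIs in SOX4- and 246123 in SOX4+ cells. A count of 0 in SOX4+ cells allows up to 15.0 CPM by the exact interval. The levels of NR4A1 and PIAS4 in SOX4- cells did not exceed that, and BATF lay close to it.

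CCR9+ cells held the highest level of SOCS2 and of CISH, both known as STAT5-driven members. SOCS2 was at 66.2 CPM in CCR9+ cells and 17.3 (15.8 to 18.9) in all other groups together, a 3.83-fold difference and a log2 ratio of 1.94 (1.66 to 2.20), which was rank 5 of 9987 genes. A SOCS2 UMI was present in 23.7% (19.8 to 28.0) of CCR9+ cells (median 4695 UMIs), in 11.4% (9.33 to 13.8) of SOX4- CCR7+LEF1+ cells and in 1.87% (1.40 to 2.45) of GZMB+ cells. Thinned to 2000 UMIs, the shares were 12.2%, 4.54% and 0.651%. B cell genes also moved with CCR9, with 6 genes summing to 157 CPM against 72.6 and 0 of them past 2-fold, and without cells holding such a UMI the SOCS2 ratio was 2.12 (1.83 to 2.41). Against the other groups without GZMB+ cells, at 24.2 CPM, the log2 ratio of SOCS2 was 1.45 (1.17 to 1.73). CISH was at 21.5 CPM (15.9 to 28.4) against 9.60 (8.48 to 10.8), a log2 ratio of 1.16 (0.69 to 1.61) from 49 and 263 UMIs. Its place was rank 80, short of 2-fold on the scale of CPM + 10.

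The other 3 members were not raised with CCR9. SOCS3 was at 24.1 CPM in CCR9+ cells and 33.9 in the rest, a log2 ratio of -0.49 (-0.91 to -0.10), and at -0.98 (-1.40 to -0.58) when GZMB+ cells were left out of the rest. PLK2 gave -0.24 (-0.71 to 0.19) and SOCS1 -0.25 (-0.59 to 0.08). Without GZMB+ cells in the rest, PLK2 was lower in CCR9+ cells by the interval of its ratio, -0.88 (-1.35 to -0.45). Thus 1 of 5 members was called higher and 0 lower, beside 0.25% of 9987 genes higher and 1.22% lower. The CCR9+ cells themselves often expressed naive genes, with a CCR7 UMI in 42.4% and a LEF1 UMI in 42.1%.

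By the number of CCR9 UMIs, SOCS2 was at 17.3 CPM at 0, 47.7 (37.1 to 60.4) at 1, 89.3 (68.6 to 114) at 2 and 61.0 (41.5 to 86.6) at 3 or more. The interval at 1 UMI did not meet that at 2, and the interval at 3 or more met both. CISH was at 9.58 CPM at 0 and between 19.8 and 22.1 in the 3 positive bins. SOCS3 went through 33.8, 27.0, 21.3 and 13.8 CPM over the 4 bins and PLK2 through 23.9, 22.8, 22.7 and 9.84. JAK and STAT genes again passed 2-fold in 0 of 4 and 0 of 7 cases, and of the receptors IL2RB (30.3 against 107 CPM) and IL10RA (92.1 against 273) were lower. None of the 17 receptors compared was called higher. IL7R, the receptor of the homeostatic cytokine IL-7, stayed short of 2-fold at 1638 against 1112 CPM, a log2 ratio of 0.56 (0.51 to 0.61). JUN was called higher (1379 against 676 CPM) and FOSL2 (6.58 against 32.7) and IRF1 (158 against 329) lower.

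Cells with at least 1 FOXP3 UMI combined a high PLK2 with a low SOCS2, and both intervals held 0 when 2 UMIs of each marker were asked for. PLK2 was at 46.3 CPM (31.5 to 65.8) against 23.1 (21.4 to 24.9) in the other groups, a log2 ratio of 1.01 (0.44 to 1.52), and SOCS2 at 5.98 against 21.4, a log2 ratio of -1.84 (-3.72 to -0.48) from 4 UMIs. SOCS3, SOCS1 and CISH gave 0.35 (-0.25 to 0.89), -0.50 (-1.22 to 0.13) and -0.83 (-2.71 to 0.54). No member passed 2-fold on the scale of CPM + 10, beside 0.681% of 9987 genes higher and 2.01% lower. The PLK2 level came from cells with 1 FOXP3 UMI, at 57.8 CPM (39.0 to 82.5) from 30 UMIs, while 2 UMIs gave 15.8 (1.92 to 57.2) and 3 or more gave 6.26 (0.158 to 34.9). With 2 UMIs asked for of every marker but GZMB, 51 FOXP3+ cells were left. Cells with 1 FOXP3 UMI then counted among the other groups. The log2 ratio of PLK2 turned to -0.98 (-3.26 to 0.57) and that of SOCS2 to -0.40 (-2.28 to 0.96), from 3 and 4 UMIs. Against the other groups without GZMB+ cells the PLK2 ratio was 0.42 (-0.15 to 0.93), an interval that held 0. FOXP3+ cells often held naive genes, with a CCR7 UMI in 71.0% and a LEF1 UMI in 53.1%. Of the 145 cells, 81 lay in the lowest CD8 tag quartile. SOCS2 there was at 6.32 CPM (0.766 to 22.8) in FOXP3+ cells and 10.1 (7.75 to 12.9) in all CD3E+ cells, with overlapping intervals. The part of the naive genes and of the tag was not tested. Of 17 receptors, 3 were higher and 1 lower. FOXP3+ cells held more RNA of the IL-2 receptor chain IL2RA (118 against 8.79 CPM), IL6R (94.2 against 33.4) and IL6ST (145 against 46.9), and less IL7R (401 against 1170) and STAT4 (22.4 against 69.8). The immediate-early gene EGR1 was at 4.48 against 53.7 CPM, from 3 UMIs in FOXP3+ cells.

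**Figure D3:**
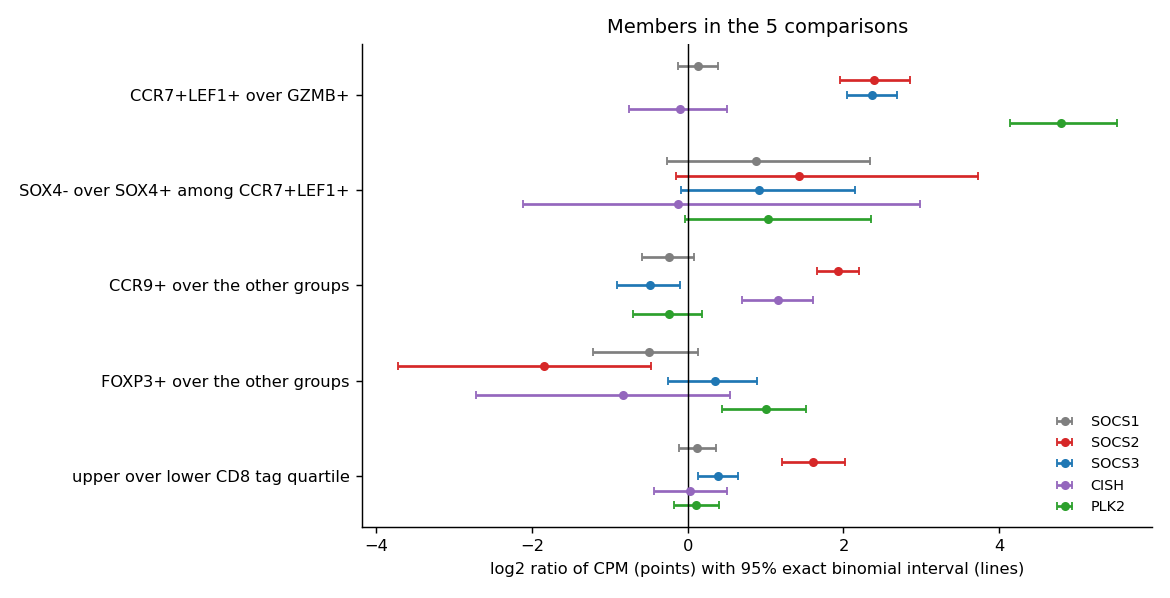
Log2 ratios of the members in the 5 comparisons. Points are log2 ratios of CPM without a pseudocount and lines are 95% exact binomial intervals of counting error, with the vertical line at no difference. PLK2 reaches 4.79 for CCR7+LEF1+ over GZMB+ cells, SOCS2 1.94 for CCR9+ cells and 1.61 for the CD8 tag, and all 5 intervals of SOX4- over SOX4+ cells hold 0.

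SOCS2 rose with the CD8 tag, a readout of the second library, and also with the CD4 tag, as given below. The CD8 tag did not part all CD3E+ cells from B gene cells. Of CD3E+ cells, 51.7% lay above 330.5 CD8 tag UMIs, the 90th percentile in B gene cells, and 93.9% lay above the matching CD4 limit of 191. Median CD8 tags were 118 in SOX4+ CCR7+LEF1+ and 165 in FOXP3+ cells, against 139.5 in B gene cells. Cells were cut at 193, 342 and 573 tag UMIs into quartiles of 1823 to 1840 cells. The lowest quartile and nearly all of the second lay below 330.5, so the step between them lies in the range of B gene cells. From the lowest to the highest quartile SOCS2 was at 10.1 CPM (7.75 to 12.9), 16.2 (13.4 to 19.6), 22.6 (19.2 to 26.3) and 30.7 (27.3 to 34.4). The middle quartiles met at the edge of their intervals. The counting intervals of the other neighbours did not overlap, those of the upper 2 quartiles only just. After thinning, a SOCS2 UMI was in 1.31%, 2.53%, 3.55% and 4.79% of the cells of the 4 quartiles. Upper over lower quartile the log2 ratio was 1.61 (1.22 to 2.02), rank 23 of 9128 genes, and after thinning, with 97 and 22 UMIs, it was 2.06 (1.38 to 2.80). SOCS3 gave 0.39 (0.14 to 0.64), SOCS1 0.12 (-0.11 to 0.36), PLK2 0.11 (-0.18 to 0.40) and CISH 0.03 (-0.43 to 0.50). So 1 of 5 members was called higher and 0 lower, beside 0.263% of genes higher and 0.0876% lower. Of 17 receptors, 4 JAKs, 7 STATs, 9 STAT targets and 13 other inhibitors compared by tag, 0 passed 2-fold.

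Between the lowest and the highest quartile, SOCS2 differed in the same direction inside each group with enough UMIs to read. Its upper quartile stood at 44.5 against 12.3 CPM in SOX4- CCR7+LEF1+ cells (log2 1.85, 0.95 to 2.88), at 72.0 against 30.5 in CCR9+ cells (1.24, 0.18 to 2.5), at 31.0 against 12.5 in other cells (1.31, 0.77 to 1.89) and at 11.3 against 2.42 in GZMB+ cells (2.23, 0.74 to 4.18). The GZMB+ lower value came from 4 UMIs, and the quartiles between were at 5.43 and 3.08 CPM. Upper cells were also deeper in each of these groups. Their median UMIs were 5180 against 3712 in SOX4- CCR7+LEF1+ and 5218.5 against 4233.5 in CCR9+ cells. In other cells they were 4423 against 3306 and in GZMB+ cells 4018 against 3169.5. FOXP3+ cells had 0 SOCS2 UMIs in 23 upper cells and 2 in 81 lower cells and gave no ratio. SOCS3 was also higher with the tag within GZMB+ and CCR9+ cells. In GZMB+ cells it was at 23.3 CPM in the upper and 7.25 in the lower quartile, a log2 ratio of 1.68 (0.79 to 2.70). The quartiles between were at 5.07 and 8.22 CPM of SOCS3. In CCR9+ cells it was at 33.5 against 7.62 CPM, the latter from 2 UMIs, a log2 ratio of 2.14 (0.17 to 5.24), and in SOX4- CCR7+LEF1+ cells its ratio was 0.30 (-0.20 to 0.81). In other cells the SOCS3 ratio was 0.34 (-0.01 to 0.70). PLK2 was near level within SOX4- CCR7+LEF1+ cells, at 54.3 and 57.5 CPM. In other cells it was at 34.2 against 26.0 CPM, a log2 ratio of 0.40 (-0.02 to 0.82). Its ratio was 1.36 (-0.48 to 3.80) in GZMB+, 0.75 (-0.78 to 2.73) in CCR9+ and -0.40 (-2.02 to 0.99) in FOXP3+ cells, so each interval held 0.

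**Figure D4:**
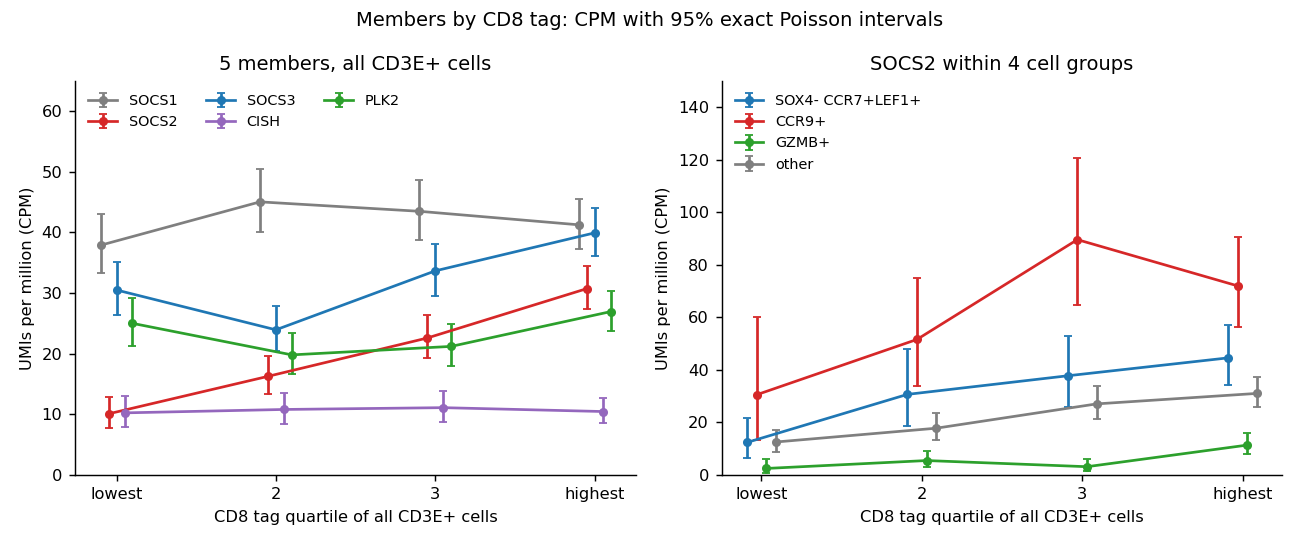
Levels of the members by quartile of the CD8 tag. Left, all CD3E+ cells, and right, SOCS2 inside 4 cell groups, as levels in CPM (linear axes) with 95% exact Poisson intervals. SOCS2 goes from 10.1 to 30.7 CPM over all cells and its highest quartile lies above its lowest in each of the 4 groups, while CISH stays between 10.2 and 11.1 CPM.

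The upper quartile differed in other ways that move with SOCS2. Its cells had a median of 4594 UMIs against 3364.5 in the lowest quartile. SOCS2 also rose with the CD4 tag, through 7.54, 17.5, 25.4 and 28.0 CPM over its quartiles. From the lowest to the highest it went from 11.3 to 23.1 CPM in other cells and from 3.44 to 11.9 in GZMB+ cells, beyond the intervals. In SOX4- CCR7+LEF1+ (18.3 and 41.1) and CCR9+ cells (66.6 and 69.5) the intervals overlapped. Over all CD3E+ cells, from the lowest to the highest CD4 quartile, SOCS3 went from 15.4 to 40.6 CPM and PLK2 from 13.9 to 28.5, both beyond their intervals. CISH went from 7.37 to 12.0 CPM with intervals that met at the edge, and SOCS1 from 37.7 to 41.3 with overlapping intervals. Median depth in these CD4 quartiles was 3065 and 4871.5 UMIs. GZMB+ cells were 1138 of the 1839 cells in the lowest and 420 of the 1826 in the highest. Inside SOX4- CCR7+LEF1+ cells PLK2 was at 49.6 and 54.6 CPM and SOCS3 at 36.5 and 61.3. Inside other cells PLK2 was at 29.7 and 33.4 and SOCS3 at 33.2 and 46.5, and all these pairs overlapped. In GZMB+ cells both differed beyond their intervals, PLK2 from 0.861 (3 UMIs) to 5.38 CPM and SOCS3 from 3.44 to 26.1. The GZMB+ cells of these quartiles, in which SOCS2 also differed, had medians of 3032 and 6048 UMIs. The part of this depth and of doublets was not tested. The part of the group makeup was not tested. Of 6 B cell genes compared, 3 were higher in the upper CD8 quartile (MS4A1 at 48.2 against 7.55 CPM, CD79A at 49.0 against 17.9 and CD79B at 46.7 against 9.12), and the hemoglobin genes HBB (0.614 against 416.5 CPM) and HBA (36.7 against 550.5) were lower. Of 19 immediate-early genes, 3 were higher, namely DUSP2 (516 against 188 CPM), EGR1 (108 against 47.8) and NR4A1 (32.5 against 5.66). Without the cells that held a B cell gene UMI, the SOCS2 ratio was 1.62 (1.2 to 2.06), and SOCS2 was at 0 UMIs in the 86 B gene cells. The part of depth, the CD4 tag, red cell RNA and immediate-early genes in the result was not tested.

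Co-detection was read after thinning each cell to 2000 UMIs, which kept 6935 cells and left out 376. Of these, 80.4% held none of the 5 members, 17.4% held 1, 2% held 2, and 11 cells held 3 or 4. SOCS3 and PLK2 were the pair most often found together. A SOCS3 UMI was present in 14.7% (10.6 to 19.7) of the 251 cells with PLK2 and in 4.86% (4.36 to 5.41) of those without it, from 37 cells with both. The same held without GZMB+ cells, at 15.1% (10.9 to 20.2) against 6.82% (6.06 to 7.64), within SOX4- CCR7+LEF1+ cells alone, at 20% (11.9 to 30.4) against 9.12% (7.11 to 11.5), and within the other cells, at 13.6% (8.29 to 20.7) against 7.02% (6.09 to 8.05). CISH and SOCS2 formed the only other pair whose intervals were apart. A SOCS2 UMI was found in 7.81% (3.81 to 13.9) of cells with CISH and in 2.98% (2.59 to 3.41) of those without, from 10 cells with both. The intervals of the remaining 8 pairs overlapped. Without GZMB+ cells the CISH and SOCS2 shares overlapped, at 9.68% (4.52 to 17.6) and 4.42% (3.82 to 5.09).

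**Figure D5:**
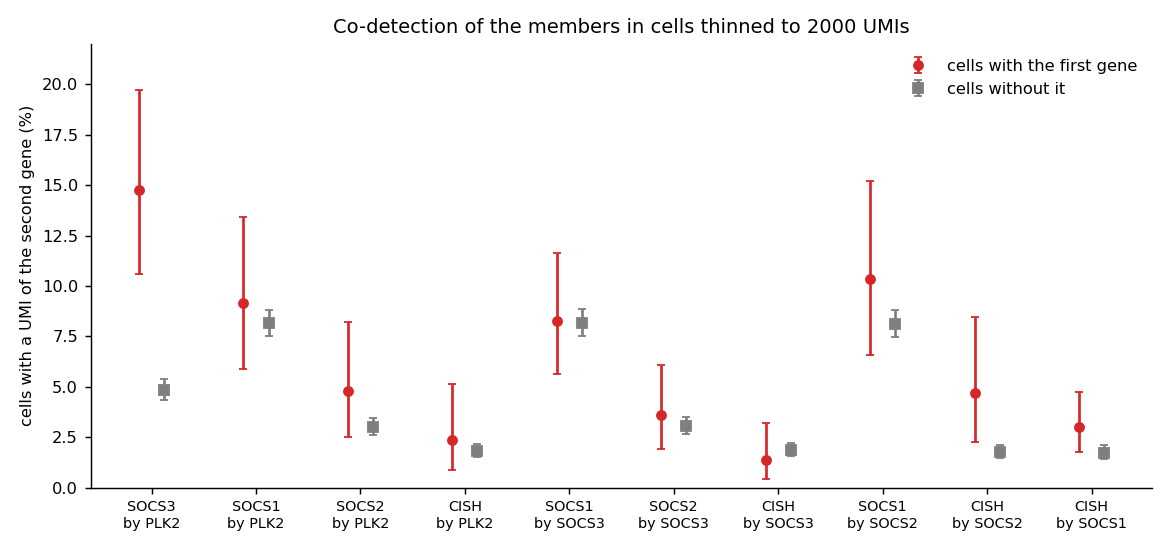
Co-detection of the 10 pairs of members in 6935 CD3E+ cells thinned to 2000 UMIs. Circles give the share of cells with a UMI of the upper-named gene among cells with the gene named below it, squares the share among cells without it, and lines are 95% exact binomial intervals. SOCS3 was in 14.7% of cells with PLK2 and 4.86% of cells without it.

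The genes most like each member were sought over 18 points, each a cell group within a CD8 tag quartile of at least 30 cells, by Pearson r of log2(CPM + 10) among 7626 genes. The points share 1 library, and r is a description. SOCS3 lay closest to the AP-1 gene JUNB (r = 0.95), then RAB31 (0.93), CXCR5 (0.86), GPR183 (0.86) and PTGER4 (0.86). PLK2 lay closest to PLK3 (0.92), DIP2B (0.91), GPR183 (0.91), the costimulatory receptor CD28 (0.91) and NXPE3 (0.90), so the oxysterol receptor gene GPR183 was in both lists. SOCS2 lay closest to ICAM2 (0.93), FLT3LG (0.93), NCOA7 (0.92), RPS2 (0.92) and EGLN3 (0.92), and ICAM2 is a gene the study used to mark CCR9+ cells. CISH lay closest to 2 genes without a symbol (0.87 and 0.85), MROH1 (0.85), APLP2 (0.85) and FURIN (0.84), and SOCS1, which varied little, to ALDH18A1 (0.85), ZG16 (0.81), AP3M2 (0.81), CFAP20 (0.81) and RBMS1 (0.79). Among the members themselves, r was 0.85 for SOCS3 and PLK2 and 0.67 for SOCS2 and CISH, and between -0.21 and 0.49 for the other 8 pairs.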

How the data were processed

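Per the labels and the submitters' processing notes, the authors aligned the reads with Cell Ranger 3.1.0 and STAR 2.5.1b to Mmul_10 and deposited unnormalized counts of UMIs for every gene and tag in each of 7923 barcodes. Seurat 3.1.3 is also named there. Here, the study's stated limits were applied, namely genes seen in 3 or more barcodes, 200 to 4000 genes per barcode, and no more than 20% of UMIs mitochondrial. No doublet caller was run. Cells were grouped by raw UMIs (1 or more of each marker, 3 or more of GZMB) and not clustered. UMIs were summed per group and divided by the group's total. With 1 animal there is no replicate, so no test was made. Ratios were called at 2-fold with a pseudocount of 10 CPM among genes with at least 50 UMIs. The described genes were the 5 members and the genes of lists fixed for the pathway, and the likeness rule took the 5 genes with the highest r. Members and lists were chosen with earlier results of these data known. The share of cells, thinning to 2000 UMIs (seed 1), Poisson and binomial intervals and ratios were computed with Python 3.11.15, numpy 2.4.6, scipy 1.17.1 and pandas 2.3.3, and the ratio code was tested on simulated data. Promoters were read from RefSeq's Mmul_10, and that of SOCS3 is not reported here. CCND2, ELOB, FAS, GBP2, IER2, IL10RB and SOCS4 had no row by symbol and were not analysed here. A 5′ library counts transcripts near their start, and levels are not comparable between genes.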

Additional observations from a re-analysis of the deposited data

Results flagged for a closer look

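UMIs of the members were also found in barcodes that entered none of the reported comparisons between cell groups, above the level that a count of 0 allows. In the 290 kept cells without a CD3E UMI, SOCS1 was at 15.7 CPM, SOCS2 at 4.48, SOCS3 at 19.0 and PLK2 at 10.1. In the 322 barcodes that failed the limits on genes and mitochondrial share, SOCS1 was at 27.9 CPM, SOCS2 at 17.05, SOCS3 at 28.7, CISH at 9.30 and PLK2 at 25.6. In the 50 mixed cells that met several marker rules, SOCS1 was at 31.1 CPM, SOCS2 at 26.6, SOCS3 at 13.3, CISH at 17.8 and PLK2 at 19.98.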

How the results depend on the processing

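Of 296 alternative values of the 25 log2 ratios, 275 lay within the counting interval of the value reported and 21 outside it. Among ratios whose own interval left out 0, only that of PLK2 with FOXP3 changed sign in any alternative. For CCR7+LEF1+ over GZMB+ cells, thinning gave 2.96 for SOCS2 and 5.65 for PLK2, the mean of per-cell CPM gave 2.80 for SOCS3, leaving out the 5% of cells with the most UMIs gave 2.79 for SOCS3 and 6.06 for PLK2, and a GZMB limit of 1 UMI gave 4.05 for PLK2. For SOX4- over SOX4+ cells, a limit of 2 UMIs for the markers gave 2.20 for SOCS3 and -0.19 for PLK2, and the lowest CD8 quartile alone gave 3.43 for PLK2. For CCR9+ cells, SOCS2 was 2.22 by the mean of per-cell CPM and 2.23 after thinning, SOCS3 -0.92 after thinning, and a rest without GZMB+ cells gave 1.45 for SOCS2, -0.98 for SOCS3 and -0.88 for PLK2. For FOXP3+ cells, a limit of 2 UMIs for the markers gave -0.40 for SOCS2 and -0.98 for PLK2, and a rest without GZMB+ cells 0.42 for PLK2. For the CD8 tag, SOCS2 was 2.06 after thinning and 1.04 between the cells above and below the median, and CISH -0.44 after thinning. The cause of these shifts was not tested. With a pseudocount of 1 and then of 50 CPM, the share of genes higher was 3.67% and 0.348% for GZMB, 10.9% and 0.186% for SOX4, 1.18% and 0.0100% for CCR9, 2.98% and 0.15% for FOXP3 and 1.06% and 0.0548% for the tag, and the share lower was 10.3% and 1.45%, 2.42% and 0.0845%, 5.07% and 0.380%, 12.6% and 0.431%, and 0.263% and 0.0438%. Of the planned or added alternatives, 4 gave no value because a count was 0, namely SOCS2 and CISH by SOX4 at 2 UMIs, CISH by SOX4 after thinning and CISH by FOXP3 at 2 UMIs. The alternatives without cells holding a B cell gene UMI, by quartile within SOX4, and without GZMB+ cells were chosen after seeing the data. No paired analysis was possible because there was 1 animal. The number of cells limits what the SOX4+ and FOXP3+ groups can show, with 2 to 8 and 4 to 31 UMIs per member.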

Other observations

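The members were also read by further surface and cycle markers, chosen after the values had been seen, and several differences were shared by members. SOCS2 was at 23.6 CPM in 6271 cells with a UMI of IL7R, the IL-7 receptor, and at 2.07 CPM (7 UMIs) in cells without one, a log2 ratio of 3.51 (2.46 to 4.83), and the cells with IL7R had a median of 3788 UMIs against 3103. SOCS2 was also higher with the chemokine receptor genes CCR4 (48.6 against 20.2 CPM) and CCR6 (40.3 against 18.9), and lower with the granzyme gene GZMK (8.29 against 24.2). SOCS3 (18.3 against 36.3 CPM), CISH (6.74 against 11.6) and PLK2 (7.08 against 27.5) were lower with GZMK as well. SOCS1 was at 41.0 with GZMK and 42.2 without. CISH was at 16.2 CPM with CCR6 and 9.98 without, a log2 ratio of 0.70 (0.24 to 1.13).

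PLK2 was at 52.3 CPM with CXCR5, a B cell follicle homing receptor, and 21.6 without, a log2 ratio of 1.27 (0.95 to 1.58), and at 8.20 CPM with KLRB1 and 28.9 without. SOCS3 and SOCS2 were also lower with KLRB1, at log2 ratios of -1.17 (-1.44 to -0.91) and -0.81 (-1.12 to -0.51). For SOCS1 and CISH the interval of the KLRB1 ratio held 0. SOCS3 was at 69.3 CPM with CCR4 and 31.6 without, and at 11.4 CPM with the proliferation gene MKI67 and 33.8 without, a log2 ratio of -1.56 (-2.44 to -0.81). The MKI67 ratio was also below 0 for PLK2, at -1.08 (-1.95 to -0.32), and for SOCS1, at -0.80 (-1.38 to -0.28). For SOCS2 it was -0.72 (-1.54 to -0.01), and for CISH -0.92 (-2.25 to 0.14), an interval that held 0. For IL2RA, the IL-2 receptor chain, the interval of the SOCS2 ratio held 0, at 0.40 (-0.08 to 0.84). Cells with CCR4, CCR6, CXCR5, MKI67 or IL2RA had medians of 4806.5 to 5017.5 UMIs against 3582 to 3636 in cells without the gene, and the part of depth was not tested.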
